A study of Mus musculus with 2 samples.

Results

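Deep intronic accessible regions are sites of open chromatin that lie inside protein-coding genes but far from any place where transcription is annotated to begin. They were taken from DNase-seq of newborn mouse stomach, an assay in which the enzyme DNase I cuts DNA that is not wrapped in nucleosomes, so that sites of frequent cutting appear as peaks. A region was a member when peaks of both replicates overlapped by at least 1 bp, and when the centre of the joined region lay in the body of a protein-coding transcript, in no exon, and more than 20 kb from every annotated transcript start (GENCODE M21, build mm10). This rule gave 8601 members among 105543 regions shared by the replicates, which is 8.15% (95% Wilson interval 7.99 to 8.32%).

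The samples formed 1 group, whole stomach of B6NCrl mice at postnatal day 0, with 2 biological replicates and 1 library each. No altered genotype, treatment or other age was included, so no test between conditions could be made. The labels give both replicates the same donor entry and do not say whether separate animals were used. The sex was not collected, and the spread between replicates may in part be technical.

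Introns make up much of the length of long genes. Enhancers, the DNA elements at which transcription factors raise the output of a promoter from a distance, commonly lie in introns, and they may act on the host gene or on a neighbour. CTCF, a zinc-finger protein that holds chromatin loops in place, also binds many intronic sites. In the stomach, FOXA, GATA, HNF1 and HNF4 factors act in the gland epithelium, AP-1 dimers and TEAD factors act in many cell types, and GRHL factors act in epithelia.

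The replicates held 139374 and 152779 peaks, of which 12254 (8.79%) and 13013 (8.52%) had a deep intronic centre. The number of reads per library is unknown. A promoter was called accessible when it overlapped a shared region within 1 kb of a start. This held for 27 of 30 gastric epithelial transcription factor genes, 23 of 28 gland product genes and 14252 of all 21888 protein-coding genes. Other cell types of the stomach gave both high and low counts. They were 36 of 38 for epithelial adhesion, 33 of 40 for smooth muscle and 32 of 45 for mesenchyme genes. For interstitial cells of Cajal the count was 8 of 10, and for enteric neurons and glia 17 of 28. Blood and immune cell genes were at 18 of 36 and endothelial genes at 14 of 28. Other organs gave 10 of 28 for hepatocyte, 13 of 26 for pancreas and 10 of 30 for cardiac and skeletal muscle genes. Brain neuron genes were at 47 of 72 and germ cell genes at 6 of 30. The lists were chosen with earlier results of these data known. Intervals printed here cover counting error only and treat regions as independent, although neighbouring regions share a locus. In whole tissue, accessibility in fewer cells and weaker accessibility per cell cannot be told apart.

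Sequences of 8 members are printed to show what these regions look like: the member with the highest mean of its ranks in the 2 replicates, in Insr (the insulin receptor), and the highest-ranked member with a match to each of 8 motifs. All are read from the + strand of mm10, 5′ to 3′. Capitals mark every match on either strand to the 8 motifs. CTCF and HNF1 are given by name. The string searched for the AP-1 dimers of FOS and JUN proteins was TGANTCA. The forkhead string of the FOXA factors was TGTTTAC. Zinc fingers of the GATA family were represented by AGATAAG, and the Hippo pathway effectors of the TEAD family by CATTCCA. For the nuclear receptor HNF4 the string was CAAAGTCCA, and for the grainyhead factors GRHL it was AACCGGTT. In the Gfra1 line the FOXA match comes first. In the Ypel2 line the order is FOXA, HNF4, GATA, and in the Rap1gds1 line HNF4 precedes AP-1.
Insr intron, chr8:3221056-3221225, + strand: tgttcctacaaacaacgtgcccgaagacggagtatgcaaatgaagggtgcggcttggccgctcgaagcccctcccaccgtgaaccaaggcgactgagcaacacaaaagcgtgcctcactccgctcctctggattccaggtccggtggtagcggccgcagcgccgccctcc
Rad51b intron, CTCF, chr12:79347736-79347885, + strand: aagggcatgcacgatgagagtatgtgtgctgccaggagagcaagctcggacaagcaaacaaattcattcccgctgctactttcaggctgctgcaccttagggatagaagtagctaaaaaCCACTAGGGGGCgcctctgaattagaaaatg
Egfr intron, AP-1, chr11:16800716-16800885, + strand: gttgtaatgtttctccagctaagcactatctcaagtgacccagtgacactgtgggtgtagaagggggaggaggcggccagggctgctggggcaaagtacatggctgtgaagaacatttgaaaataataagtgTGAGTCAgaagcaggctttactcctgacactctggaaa
Rap1gds1 intron, HNF4 and AP-1, chr3:139037176-139037325, + strand: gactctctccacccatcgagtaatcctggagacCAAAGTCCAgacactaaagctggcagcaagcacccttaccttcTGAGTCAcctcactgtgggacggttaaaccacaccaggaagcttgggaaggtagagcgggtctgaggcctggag
Gfra1 intron, FOXA and HNF1, chr19:58396736-58396885, + strand: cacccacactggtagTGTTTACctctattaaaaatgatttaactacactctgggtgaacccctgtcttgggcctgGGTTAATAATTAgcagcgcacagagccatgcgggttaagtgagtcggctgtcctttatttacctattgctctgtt
Ypel2 intron, FOXA, HNF4 and GATA, chr11:86962036-86962225, + strand: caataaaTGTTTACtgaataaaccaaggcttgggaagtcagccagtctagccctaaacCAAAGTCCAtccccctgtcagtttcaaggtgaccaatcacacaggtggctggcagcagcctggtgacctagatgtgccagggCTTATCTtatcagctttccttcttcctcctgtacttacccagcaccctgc
Cdc42bpb intron, AP-1 and TEAD, chr12:111353516-111353685, + strand: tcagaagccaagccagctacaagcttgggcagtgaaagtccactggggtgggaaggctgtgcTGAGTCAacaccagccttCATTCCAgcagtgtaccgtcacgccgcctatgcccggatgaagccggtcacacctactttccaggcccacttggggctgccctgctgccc
Zfp704 intron, GRHL, chr3:9520636-9520785, + strand: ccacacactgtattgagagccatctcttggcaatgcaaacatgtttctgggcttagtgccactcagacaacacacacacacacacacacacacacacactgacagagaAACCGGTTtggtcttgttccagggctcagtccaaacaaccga

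The Insr region held no match to the 8 motifs, and 62.4% of its bases were G or C. Its signal, the whole-number value that the authors deposited for each peak without a stated scale, was 110 in replicate 1 and 126 in replicate 2. It lay in intron 2, 28.4 kb from the nearest start. The Egfr region, in intron 1 of the epidermal growth factor receptor gene, had signals of 116 and 118 and carried its AP-1 match 29.9 kb from the nearest start. Rap1gds1, which encodes an exchange factor for small GTPases, held a region with signals of 122 and 115. The Rad51b region, in a gene of the homologous recombination pathway, had signals of 87 and 102. It was the highest-ranked eligible member with a CTCF match. Gfra1 encodes a co-receptor for the neurotrophic factor GDNF, and its region had signals of 84 and 92.

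Deep introns held fewer accessible regions per Mb than introns nearer to starts and more than intergenic space far from starts. They covered 332 Mb and held 25.9 members per Mb. Introns 1 to 20 kb from a start held 47.3 shared regions per Mb. Far intergenic sequence, outside every transcript and more than 20 kb from every start, held 14.4 per Mb. Deep intronic and far intergenic sequence were not matched for distance from a start or for repeats. Bases marked as repeats in the assembly made up 29.4% of the former and 42.8% of the latter. The peaks of each replicate gave the same order. Replicate 1 had 36.9 deep intronic, 62.5 near intronic and 21.4 far intergenic peaks per Mb, and replicate 2 had 39.2, 69.8 and 22.0.

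Density fell with distance in every step measured. Introns 20 to 50 kb from a start held 32.1 shared regions per Mb, those at 50 to 100 kb held 20.3, those at 100 to 200 kb held 15.2, and those beyond 200 kb held 8.86. Peaks of replicate 1 fell from 44.9 to 14.7 per Mb over these 4 bins and those of replicate 2 from 47.6 to 12.7. The last bin rests on 98 members. At the 20 kb limit itself there was no step in signal: 766 members at 20 to 22 kb had median signals of 46 and 57, and 957 shared intronic regions at 18 to 20 kb had medians of 46 and 56.

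**Figure D1:**
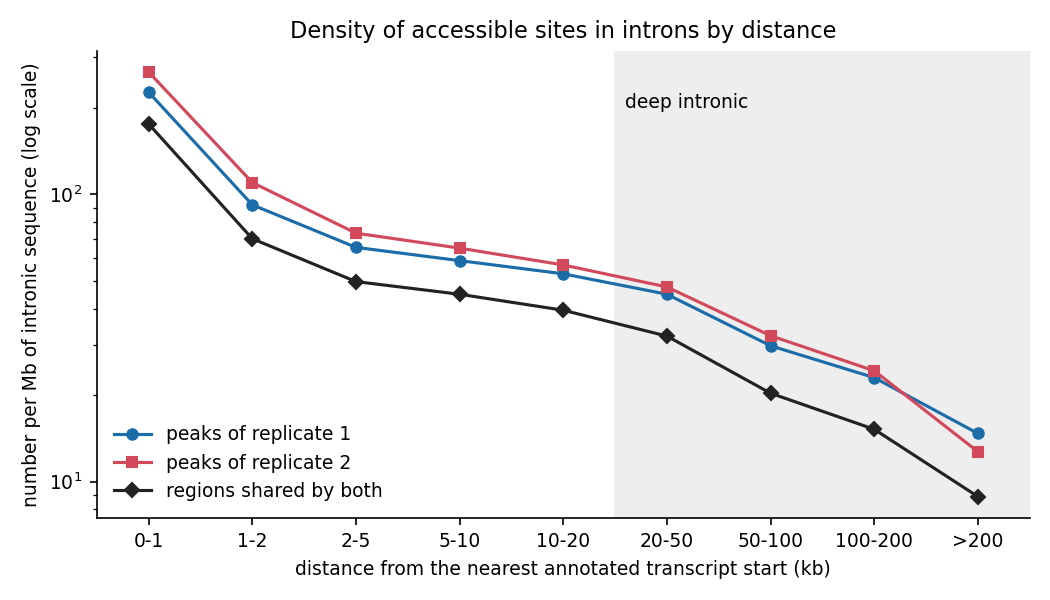
Number of accessible sites per Mb of intronic sequence (log scale) against distance from the nearest annotated transcript start in kb, for the peaks of replicate 1, the peaks of replicate 2 and the regions shared by both. Within the shaded deep intronic range the shared regions fall from 32.1 to 8.86 per Mb.

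The median distance to the nearest start was 36.0 kb, with quartiles of 26.1 and 56.4 kb, and the median distance to the nearest exon was 9.01 kb. The median width was 170 bp, and 96.7% of members were made of 1 peak from each replicate. The intron around a member had a median length of 51.9 kb. Intron 1 of the host transcript held 1937 members (22.5%), intron 2 held 17.3%, and the last intron held 8.02%. Members lay at a median of 52.3% of the length of the host transcript. How deep intronic sequence itself is spread over intron ranks and transcript length was not measured, so no preference can be read from these values.

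The farthest member from any start lay 481 kb away in Dcc, which encodes the netrin receptor of growing axons, and its signals were low, 38 and 36. A region in Il1rapl1, a synaptic adhesion gene, at chrX:87238316-87238465 lay 435 kb from the nearest start with signals of 60 and 70. Gpc6, which encodes a glypican of the cell surface, held the next 3 members by distance, at 423, 424 and 426 kb, with signals of 25 to 46 in replicate 1 and 29 to 47 in replicate 2. Of all members, 2586 (30.1%) lay beyond 50 kb and 746 (8.67%) beyond 100 kb.

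Signals at members were modest. The median was 43 in replicate 1 and 53 in replicate 2, at percentiles 36.0 and 35.0 of all shared regions. Near intronic regions had medians of 49 and 60, and regions within 1 kb of a start 62 and 74. Among members, 262 (3.05%) in replicate 1 and 216 (2.51%) in replicate 2 were in the strongest 10% of shared regions. Compared with near intronic regions these shares were lower by 1.75 points in replicate 1 (deep minus near -1.75, 95% Newcombe interval -2.19 to -1.28) and by 1.86 points in replicate 2 (-1.86, -2.26 to -1.42). Against far intergenic regions the difference was -0.303 points (-0.792 to 0.195) and -0.138 points (-0.578 to 0.313), which was not distinguishable at these counts. Across the 8601 members the signals of the replicates had a Spearman correlation of 0.866, given as a description since both lists share the tissue and the same sites were required in both.

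By the mean of both ranks, the 10 highest members lay in Insr, Egfr, Ypel2, Rap1gds1, Babam2, Lipc, Myo16, Utrn, Efna5 and Arid1b. Their signals ran from 110 to 122 in replicate 1 and from 113 to 126 in replicate 2, so they overlapped among themselves. The Insr region was the highest of the 10 in replicate 2, and the Rap1gds1 region in replicate 1. The Babam2 region (chr5:31968056-31968205), in a gene for a subunit of a DNA repair complex, had signals of 114 and 118. Its nearest protein-coding start was that of Fosl2, an AP-1 subunit gene, 168 kb away. The Lipc region (chr9:70889196-70889345) had signals of 110 and 119. It lay in intron 1 of the hepatic lipase gene, none of whose starts had a shared region within 1 kb. The Myo16 region, in the last of the 34 introns of an unconventional myosin gene, had signals of 110 and 118, and the promoter of its host was also without a shared region. The Efna5 region, in intron 1 of an ephrin ligand gene, lay 96.9 kb from the nearest start and had signals of 110 and 118. The Utrn region lay in intron 16 of the gene of the dystrophin relative utrophin, only 0.110 kb from an exon, with signals of 110 and 118.

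Deep intronic peaks were found in the other replicate less often than near intronic peaks when all peaks were counted, but at similar signal they were found about as often or more often. Of the deep intronic peaks of replicate 1, 71.8% overlapped a peak of replicate 2, against 77.2% for near intronic peaks (difference -5.35 points, -6.27 to -4.44). For replicate 2 the shares were 67.5% and 69.1% (-1.54 points, -2.48 to -0.609). The members' peaks had medians of 43 and 53, while the 3450 and 4228 deep intronic peaks found in a single replicate had medians of 25 and 35. When the peaks of replicate 1 were split into 4 equal classes of signal, the deep intronic shares from the lowest to the highest class were 39.9, 78.3, 95.4 and 99.2%. The near intronic shares were 39.7, 75, 93.2 and 99.3%. In replicate 2 the deep intronic shares were 39.8, 67.5, 91.3 and 99.2% and the near intronic shares 36.5, 57.1, 84.9 and 98.5%. Every member overlapped a hotspot, a broader zone of enriched cutting, in both replicates. So did 100% of the shared regions of every other class, so this does not set members apart.

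**Figure D2:**
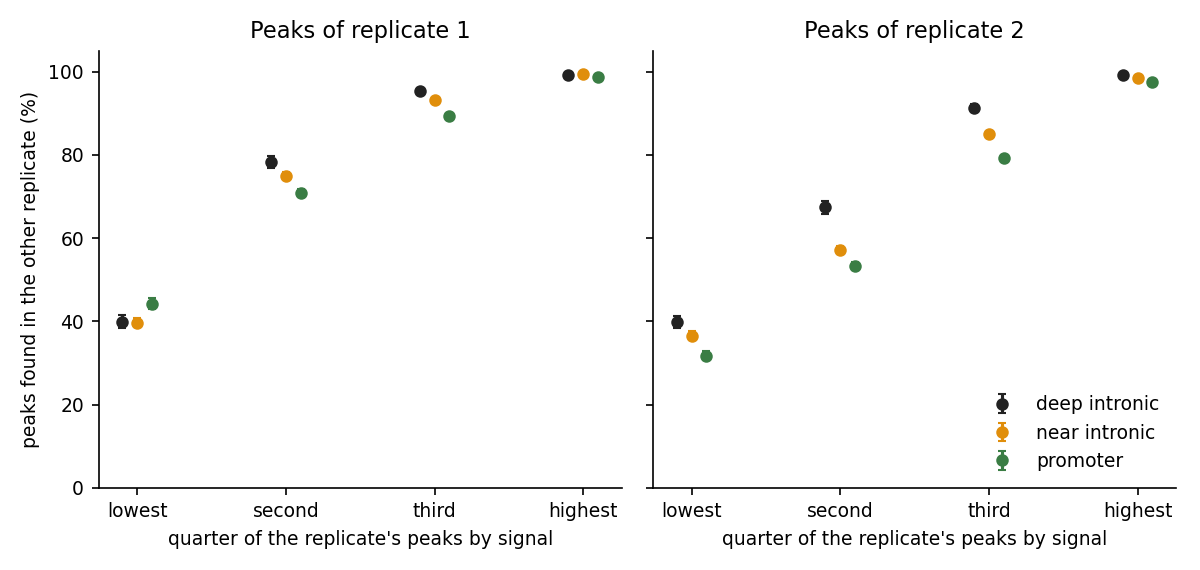
Percentage of peaks found in the other replicate against the class of signal within the replicate, for deep intronic, near intronic and promoter peaks, with 95% Wilson intervals as bars. In the 2 middle classes of both replicates the deep intronic points lie above the others, for example 67.5% against 57.1% for near intronic peaks in the class above the lowest in replicate 2.

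The mean GC content of members was 47.7%, against 49.1% in near intronic, 47.7% in far intergenic and 59.5% in promoter regions. Members held 1.36 CpG per 100 bp, against 1.49 in near intronic and 6.04 in promoter regions. Soft-masked bases, which mark repeats in the assembly, made up 11.8% of member bases and 29.4% of all deep intronic sequence. More than 50% of the bases were masked in 434 members (5.05%) and in 5.23% of near intronic regions. Accessible regions were unevenly spread between chromosomes: autosomes held 20.7 to 37.5 members per Mb of deep intronic sequence, with chromosome 6 lowest and chromosome 11 highest, and X held 9.81. Peaks on X were also sparse in each replicate, 16.9 and 15.8 per Mb, and near intronic regions on X were at 18 per Mb. Whether the number of X chromosomes in the animals plays a part was not tested, since their sex was not collected.

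Many members lay close to another member, but the share expected from density alone and that of other classes were not computed. When members were joined into runs at a fixed limit just under 13 kb between neighbours, 1884 runs of 2 or more held 5353 members and 3248 members (37.8%) stood alone. Runs of 5 or more numbered 187 and held 1126 members. The largest run lay in Ccdc85c at chr12:108223476-108252485, where 12 members fell within 29.0 kb, with signals of 44 to 108 in replicate 1 and 57 to 100 in replicate 2. Rere, which encodes a transcriptional corepressor of the atrophin family, held 11 members within 32.8 kb. Rtn4rl1, Lmo7 and Ago2, the last a core protein of the RNA interference complex, each held a run of 10, and the Ago2 run was the tightest, at 20 kb.

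The members lay in the bodies of 2397 protein-coding genes, which is 51.4% of the 4660 genes that contain deep intronic sequence. Of these hosts 826 (34.5%) held a single member and 175 held at least 10. When each member was given to its smallest host, 415 genes held 50% of them.

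Rad51b carried 43 members over 465 kb of deep intronic sequence (92.4 per Mb), from 58 peaks in replicate 1 and 69 in replicate 2. Its body is at chr12:79297282-79814690, and its members lay 20.5 to 294 kb from a start. Msi2 (chr11:88339382-88718513), which encodes an RNA-binding protein of the Musashi family, held 35 members at 146 per Mb. Pde4d, a gene for a cyclic AMP phosphodiesterase, held 33 members, but over 832 kb, or 39.7 per Mb. Arid1b (chr17:4994332-5347656), a gene for a subunit of the SWI/SNF chromatin remodelling complex, held 32 members at 132 per Mb. Camta1, a gene for a calmodulin-binding transcription activator, also held 32, at 50.3 per Mb, and Slc39a11, a zinc transporter gene, held 30 at 110 per Mb. Macrod2, which encodes an ADP-ribose hydrolase, held 34 members over 1499 kb, or 22.7 per Mb.

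For some of the genes with the most members the annotated body is a very long model. The model Gm20388 (chr8:119910841-124345722) held 85 members and holds other whole genes, and 26 of its members also lay in another host. Gm37240, also a model that holds other genes, held 29. For Fgfr2, a fibroblast growth factor receptor gene, the annotated body (chr7:130162451-133123350) likewise holds other genes, and 20 of its 44 members also lay in another host. The bodies of Macrod2, Camta1, Slc39a11 and Prdm16 also hold another whole gene, but none of their members lay in another host. In all, 732 members (8.51%) lay only in genes that hold another whole protein-coding gene, and 125 (1.45%) lay in more than 1 gene.

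Among hosts with at least 100 kb of deep intronic sequence and 5 members, the median density was 37.8 members per Mb and the highest was 151 per Mb in Rere, with 20 members from 24 and 28 peaks. Msi2 and Arid1b came next. Gse1 held 128 per Mb and all of its 23 members also lay in Gm20388. Rap1gap2, which encodes a GTPase-activating protein for Rap1, held 127 per Mb. Arid5b (119 per Mb), Prdm16 (119 per Mb) and Cux1 (112 per Mb) encode DNA-binding regulators, Prkag2 (119 per Mb) a regulatory subunit of the AMP-activated kinase, and Fndc3b held 113 per Mb. All 10 had a shared region within 1 kb of a start.

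**Figure D3:**
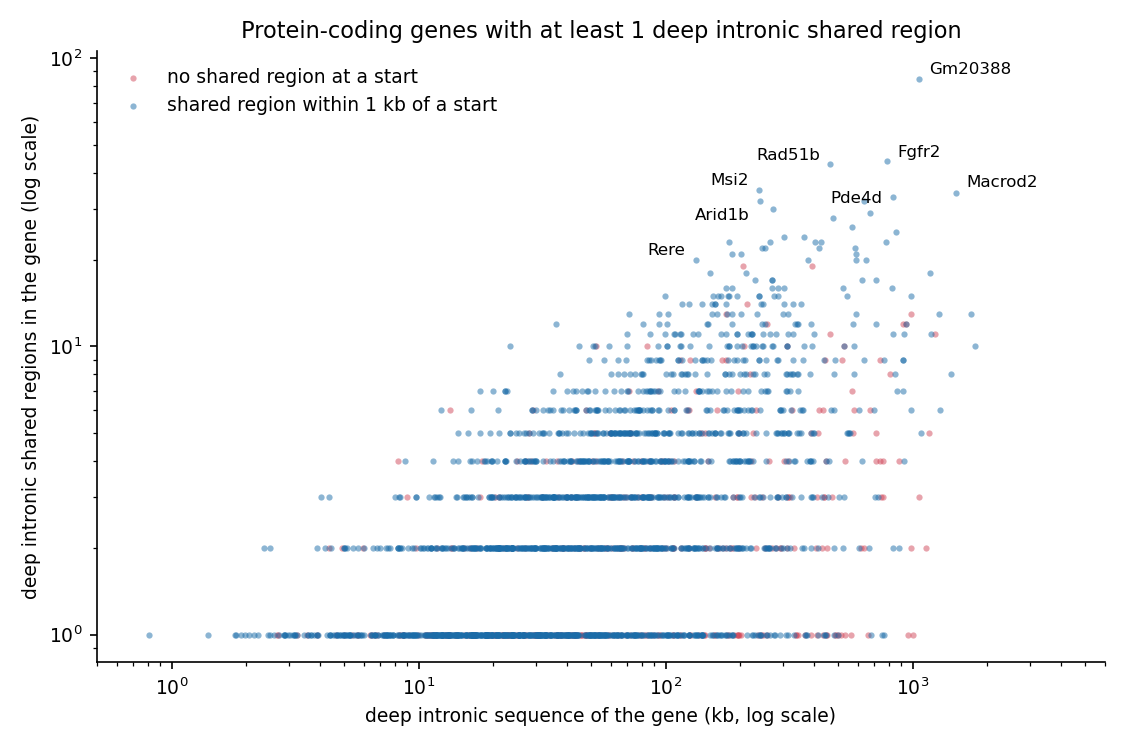
Number of deep intronic shared regions in each host gene against its length of deep intronic sequence in kb (both axes logarithmic), coloured by whether the gene had an accessible promoter, meaning a shared region no more than 1 kb from a start. Rere, Msi2 and Arid1b hold 20, 35 and 32 members in 133, 239 and 242 kb, while Macrod2 holds 34 in 1499 kb.

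Of the 833 genes with at least 100 kb of deep intronic sequence, 743 (89.2%) held a member and 90 held none. The longest without one was Lrp1b, a gene for a large lipoprotein receptor relative, with 1657 kb of deep intronic sequence. It had 2 peaks in each replicate and none of them overlapped. Csmd1, a complement-regulator-like gene expressed in the brain, had 1285 kb, with 5 peaks in replicate 1 and 2 in replicate 2. Sgcz (995 kb), the glutamate receptor gene Grm7 (818 kb), the contactin gene Cntn4 (815 kb) and the protocadherin gene Pcdh9 (642 kb) also held none.

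Within classes of length of deep intronic sequence, hosts more often had an accessible promoter than genes without a member. The classes are wide, so lengths can still differ within them. For genes with under 20 kb of such sequence, 86.6% of 484 with a member and 68.7% of 1670 without had a shared region within 1 kb of a start, a difference of 17.8 points (13.9 to 21.4). For 20 to 100 kb the shares were 85.6% and 66.4% (19.2 points, 14.7 to 23.9), and for 100 to 300 kb 83.5% and 55.4% (28.1 points, 16.7 to 39.8). For 300 kb or more they were 70.3% of 229 and 31.2% of 16 genes (39.1 points, 13.9 to 57).

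The fall with distance was present in both kinds of gene. In the bodies of genes with an accessible promoter, density was 36.6 members per Mb at 20 to 50 kb, 24.1 at 50 to 100 kb and 17.8 beyond. Elsewhere it was 15.7, 9.80 and 6.90 per Mb at the same distances. For 1875 members (21.8%) the nearest protein-coding start belonged to a gene other than the host. The most frequent such pairs, listed after their values were seen, were Macrod2 members nearest to Flrt3 (22 members, 22.6 to 724 kb), Prkce members nearest to Gm10309 (17) and Arid1b members nearest to Ldhal6b (15). A group of 11 members in Vti1a lay 121 to 204 kb from the start of Tcf7l2, a Wnt pathway transcription factor gene, with signals of 41 to 94 and 52 to 90.

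Density differed widely between groups of genes. Over all genes it was 25.7 members per Mb of deep intronic sequence, counting sequence of overlapping genes once for each gene. The counts below are descriptions, since no test compared the lists. A shared region lay at a start in 46 of 47 genes of the widely used transcription factor list and in 46 of 71 of the brain list, against 3539 of 4660 over all genes with deep intronic sequence. The part of promoter state in the densities was not tested.

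The Hippo pathway and Tead genes, which control growth through the coactivators Yap1 and Taz, had the highest density in shared regions and in the peaks of replicate 1. In the peaks of replicate 2, the epithelial adhesion (79.1 per Mb) and widely used transcription factor lists (76.5 per Mb) were above them. They held 39 members in 9 of 13 genes with deep intronic sequence, or 59.5 per Mb, against 82.5 and 73.3 peaks per Mb in replicates 1 and 2. Fat1, an atypical cadherin gene, held 6 members in 31.9 kb, Wwc1, the gene for Kibra, held 9, and Stk3, a core kinase gene, held 6.

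Genes of epithelial adhesion and polarity held 128 members in 14 of 16 genes, or 55.0 per Mb (75.7 and 79.1 peaks per Mb). The tight junction scaffold gene Magi1 led with 28 members in 475 kb, followed by the receptor phosphatase gene Ptprk with 23 and the polarity gene Pard3b with 20. All 16 had an accessible promoter.

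Widely used transcription factors and cofactors held 342 members in 39 of 47 genes, or 50.6 per Mb (68.9 and 76.5 peaks per Mb). Hdac9, a histone deacetylase gene with 421 kb of deep intronic sequence, held none, with 1 and 5 peaks in the replicates.

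Gastric epithelial transcription factors held 41 members in 10 of 13 genes, or 46.6 per Mb (74 and 64.9 peaks per Mb). Esrrg, an orphan nuclear receptor gene of parietal cells, held 9 members in 437 kb and had 24 peaks in replicate 1 but 14 in replicate 2. Runx1 held 9 in 131 kb, and the zinc-finger factor gene Casz1 held 7 in 43.4 kb.

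Gland products and channels of the gastric epithelium held 18 members in 6 of 8 genes, or 29.3 per Mb (43.9 and 55.3 peaks per Mb). Kcnq1, whose potassium channel serves acid secretion, held 7 members in 83.2 kb. The muscarinic receptor gene Chrm3 also held 7, in 308 kb, and the anion exchanger gene Slc26a7 held 1.

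Marker genes of interstitial cells of Cajal, which pace the contractions of the gut wall, were measured here in whole tissue and held 21 members in 6 of 6 genes, or 45.3 per Mb. The sodium bicarbonate transporter gene Slc4a4 held 12 of them, Elovl6 held 5 and Ano1, whose chloride channel defines these cells, held 1. Genes of Hedgehog, Wnt, BMP, FGF, Notch and retinoid signalling held 130 members in 23 of 36 genes, or 44.2 per Mb. Of these 44 lay in the long Fgfr2 model. Tcf7l2 held 12 in 81.4 kb, with a median signal percentile of 72.7, and the BMP receptor gene Bmpr1b held 10.

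Endothelial genes held 36 members in 8 of 16 genes, or 40.4 per Mb, of which 24 lay in Mecom, a zinc-finger factor gene. Flt1, a receptor gene for vascular endothelial growth factor, and Erg, an ETS factor gene, held 3 each. Blood and immune cell genes held 56 members in 16 of 19 genes, or 26.3 per Mb, with 12 in Bach2 and 9 in Etv6.

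Visceral smooth muscle genes held 116 members in 23 of 26 genes, but at 21.6 per Mb (31.4 and 36.8 peaks per Mb). The dystrophin gene Dmd held 13 members in 1728 kb, or 7.52 per Mb, whereas the actin-bundling protein gene Palld held 14 in 176 kb and Lpp 14 in 329 kb. Without genes whose body holds another whole gene, which leaves out Dmd, the list was at 34.9 per Mb. Gut mesenchyme and matrix genes held 56 members in 11 of 22 genes, or 23.8 per Mb. Zfhx3 held 20 of these, Tshz2 held 11 and the basement membrane collagen gene Col4a2 held 6 in 52.0 kb. Zfhx4, with 142 kb, held none.

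Enteric neuron and glia genes held 27 members in 6 of 12 genes, or 14.3 per Mb. Gfra1 held 9, Nrg1, a growth factor gene of glia, held 8 in 851 kb, and Ntrk3, a neurotrophin receptor gene, held none in 172 kb. Lists for organs other than the stomach gave both high and low values. Pancreas genes held 42.4 per Mb, with 22 of the 41 members in Ptprn2, and 5 hepatocyte genes held 6 members at 37.1 per Mb. Cardiac and skeletal muscle genes held 13 members in 3 of 13 genes, or 12.8 per Mb, and germ cell genes 12 members in 5 of 12, or 17.8 per Mb.

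Brain neuron adhesion and synapse genes had the lowest density of the 17 lists, 8.43 members per Mb (13.7 and 14.4 peaks per Mb). Because these genes are very long, with 43.2 Mb of deep intronic sequence in all, they still held 364 members, in 62 of 71 genes. Their members were weak, with a median signal percentile of 22.1 against 35.5 for all members. Macrod2 led with 34, and the ion channel gene Asic2 and the axon guidance receptor gene Robo1 held 16 each.

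**Figure D4:**
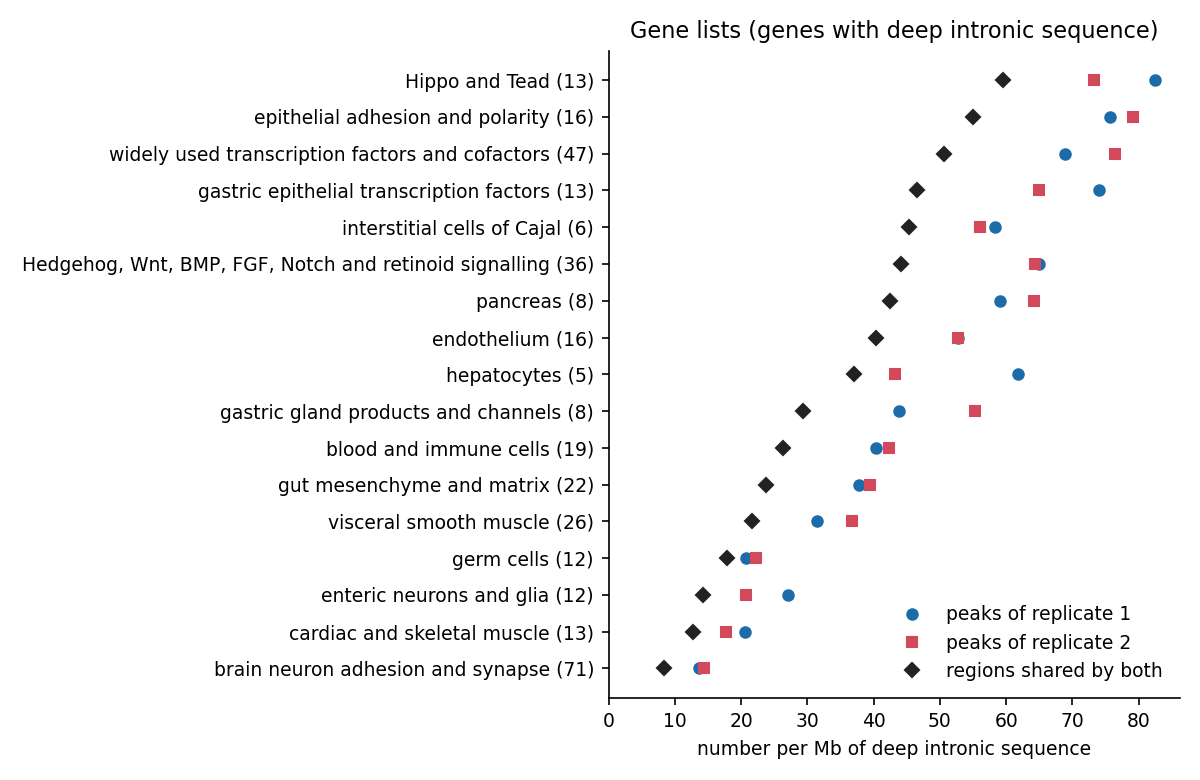
Deep intronic peaks of each replicate and shared regions per Mb of deep intronic sequence, for 17 gene lists with the number of genes that contain such sequence in brackets. Shared regions range from 8.43 per Mb in brain neuron genes to 59.5 per Mb in Hippo and Tead genes.

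Matches to the 8 motifs marked in the sequences above were denser at the centres of members than at the edges of the 500 bp on either side, by 1.52 times for TEAD to 114 times for CTCF. At least 1 of the 8 was found in 3165 members (36.8%, 35.8 to 37.8%) and in 13.1% of 16216 windows of the same width placed 1 kb away outside any peak. Near intronic regions were at 34.8% and far intergenic regions at 36.3%. Matches to different motifs of the 8 overlapped in 12 members, 8 of them AP-1 with TEAD. A match is a run of letters and does not show that a factor is bound.

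CTCF matches were found in 475 members (5.52%, 5.06 to 6.03%), in 5.30% of all shared regions and in 0.0432% of the windows 1 kb away. The string read backwards was found in 0 members, which allows a share of up to 0.0349% by the limit of 3 counts. Within 50 bp of the centre, CTCF matches were 114 times as dense per base as beyond 400 bp. The share was 3.97% in the deep intronic peaks of replicate 1 and 4.16% in those of replicate 2, lower than in the shared regions. It did not differ detectably from near intronic regions (-0.405 points, -0.959 to 0.175) and was below that of far intergenic regions (-1.37 points, -2.04 to -0.694). In order of signal, the 4 classes of members held CTCF matches at 2.57, 5.47, 9.01 and 5.01%, so the share peaked just below the strongest class.

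Members in brain neuron genes held CTCF matches more often than the other members. The share was 42 of 364 (11.5%) against 433 of 8237 (5.26%), a difference of 6.28 points (3.35 to 10). The 42 members were spread over 25 of the 62 hosts of this list, with at most 4 in a gene, in Dpp6 and in Nrxn3. In the same members AP-1 matches were at 13.5% against 17.8% (-4.30 points, -7.54 to -0.326), and FOXA matches at 5.77% against 7.04% (-1.27 points, -3.32 to 1.67). Other lists also varied in CTCF share, with 2.92% (10 of 342, 1.60 to 5.30%) in widely used transcription factor genes, 7.76% (9 of 116, 4.14 to 14.1%) in smooth muscle genes and 10.3% (4 of 39, 4.06 to 23.6%) in Hippo and Tead genes. A raised share is therefore not shown to be particular to the brain list.

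AP-1 matches were the most frequent of the 8, in 17.6% of members, 13.1% of all shared regions and 5.13% of the windows 1 kb away. The string read backwards was in 6.41% of members and 5.66% of near intronic regions. Near intronic regions had AP-1 matches in 16.4%, a difference of 1.15 points (0.229 to 2.09), but this did not hold in the replicates taken singly. In the deep and near intronic peaks of replicate 1 the shares were 13.8% and 13.9%, and in replicate 2 14.8% and 14.3%. Within the members the share rose with signal, from 14.7% in the weakest class to 20.7% in the strongest, a difference of 5.93 points (3.65 to 8.21), and to 23.8% in the strongest 10% of members. The letters CAGGTG, an E-box that SNAI and ZEB repressors and some bHLH factors can bind, went from 12.3% to 18.9% over the same classes (6.55 points, 4.39 to 8.72).

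FOXA matches were in 6.99% of members, 4.77% of all shared regions and 2.50% of the windows 1 kb away. The difference from near intronic regions was 1.20 points (0.599 to 1.83), and it was above 0 in each replicate's peaks too, with 5.67% against 4.99% in replicate 1 and 5.81% against 4.88% in replicate 2. With distance from a start the share went from 6.53% of members at 20 to 50 kb to 7.34% at 50 to 100 kb and 9.79% (7.85 to 12.1%) beyond 100 kb. The reversed string went from 3.61% to 3.64% and 4.56%, and the mean GC content of these members from 48.0% to 47.5% and 46.0%. Over all members the reversed string was in 3.70%, against 3.42% of near intronic regions. The part of base composition in the FOXA values was not tested beyond this.

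**Figure D5:**
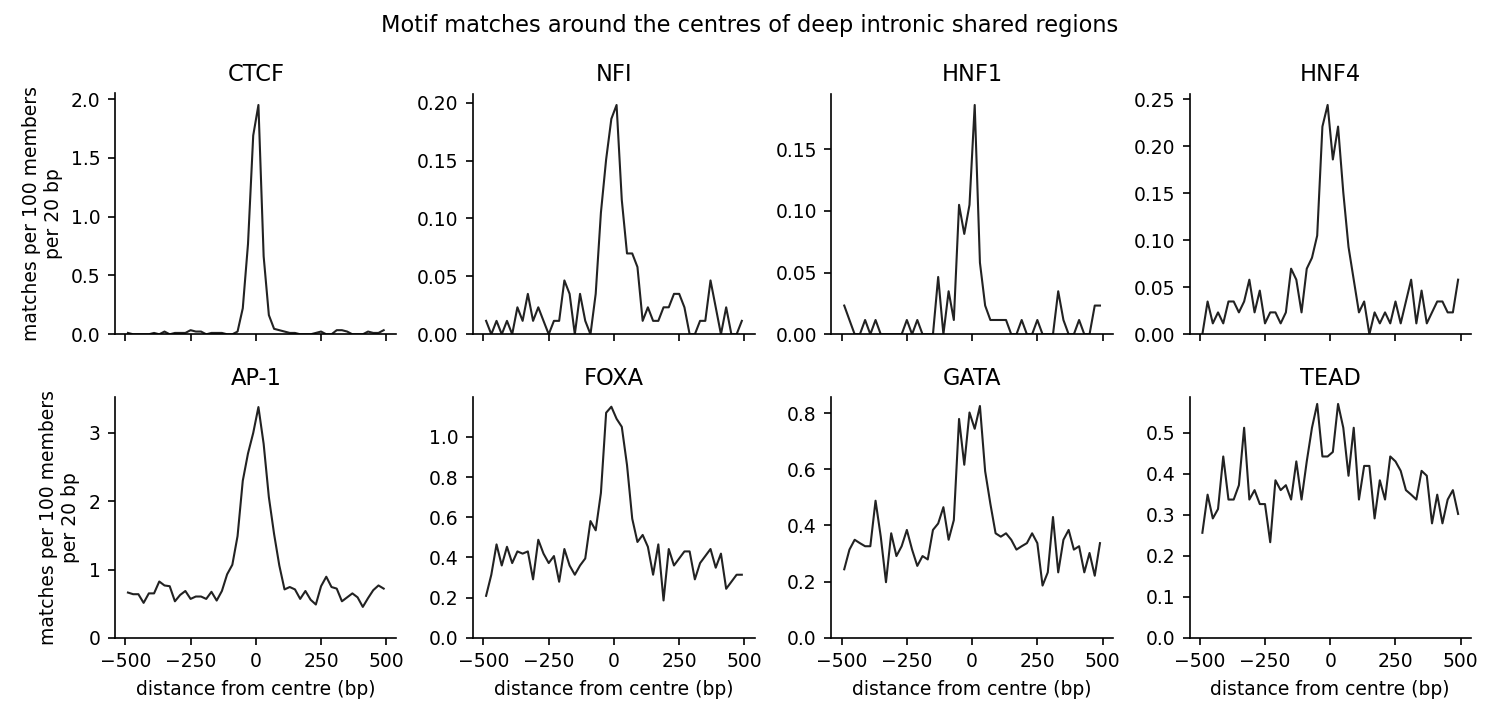
Motif matches per 100 members in bins of 20 bp against distance from the centre of the member, up to 500 bp on either side, for 8 motifs. These are CTCF, NFI, HNF1, HNF4, AP-1, FOXA, GATA and TEAD, so NFI is shown and GRHL is not. The vertical scales differ between panels. CTCF is the narrowest, with matches near the centre 114 times as dense as at the edge, and TEAD the flattest, at 1.52 times.

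HNF4 matches were in 1.28% of members and 0.204% of the windows 1 kb away, and were 8 times as dense at the centre as at the edge. HNF1 matches were in 47 members (0.546%), against 0.351% of near intronic regions (0.195 points, 0.0368 to 0.387). GRHL matches were in 0.128% of members and 0.0123% of the windows (0.116 points, 0.0503 to 0.217), and were 5.50 times as dense at the centre as at the edge. The share in members was below the 0.302% that held the GRHL string read backwards. GATA matches were in 5.32% of members and 2.73% of the windows, and NFI matches in 0.907% and 0.0678%. TEAD matches were in 4.02% and 3.09%, a difference of 0.933 points (0.45 to 1.44), and their share fell with signal from 5.14% to 3.44% (-1.71 points). Of the GC-rich strings, 2 were less frequent than in near intronic regions. KLF (CCCCACCC) was in 4.21% of members against 5.17% (-0.963 points, -1.46 to -0.442), and the GC box (GGGGCGGGG) in 0.977% against 1.42% (-0.441 points, -0.685 to -0.171). The KLF string read backwards was also less frequent, in 2.76% against 3.26%. Other strings common at promoters gave no detectable difference: ETS at -0.0858 points (-0.215 to 0.0712), NFY at 0.119 (-0.216 to 0.484), CREB at 0.0154 (-0.126 to 0.187) and YY1 at 0.0103 (-0.0835 to 0.135). Some AT-rich strings were sparser at the centre than at the edge. The homeodomain core TAATTA was in 3.63% of members and in 5.82% of the windows 1 kb away, and was 0.635 times as dense at the centre. MEF2, a motif of muscle regulators, was in 2.01% and 3.55% (0.564 times). SRF, which acts in smooth muscle, did not differ detectably between members and windows. Its shares were 0.942% and 0.937% (0.00441 points, -0.239 to 0.270), with 0.933 times the density at the centre. In all 33 motifs were searched and the intervals were not adjusted for that number.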

How the data were processed

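DNase-seq peak and hotspot lists of 2 replicates on mm10 were used as deposited by the authors. Per the deposited file lists, each list came from the filtered alignments of its own replicate. Aligner and peak caller: not given in the sources used here. For each peak, the signal, as deposited, is a whole number without a stated scale and was used only to rank peaks within a list. The -log10 q-value of a hotspot, as deposited, was read but no result uses it, and hotspots were used only for overlap. Peaks on the 19 autosomes, X and Y with at least 1 bp in common were merged in Python 3.11.15 and numpy 2.4.6, and centres were classed with GENCODE M21. Sequence came from the RefSeq mm10 assembly, and motifs were searched on both strands. Named genes were the 10 hosts with the most members, the 10 densest, up to 3 per list, and hosts of the strongest, farthest and most clustered members. Members, lists and motifs were chosen with earlier results of these data known. Joining, classing and motif search were tested on simulated data. Shares have 95% Wilson and differences 95% Newcombe intervals (scipy 1.17.1 as a check). Replicate depth is unknown, which limits which weak sites could be found.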

Additional observations from a re-analysis of the deposited data

How the results depend on the processing

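The number of members depends on the rule. It was 15236 with a minimum distance of 10 kb, 2586 with 50 kb, 3729 from the stronger 50% of each replicate's peaks, 16794 when only starts of protein-coding transcripts counted, and 12254 to 13013 from a single replicate. The deep over near intronic density ratio, 0.548, stayed below 1: it was 0.596, 0.414, 0.425 and 0.580 under the first 4 of these settings and 0.562 to 0.591 from single replicates. The mean share of peaks found in the other replicate, 69.7%, became 66.0% when 50% of both peaks had to overlap and 81.3% among stronger peaks. The mean share of members in the strongest 10%, 2.78%, became 3.55% at 10 kb, 2.07% at 50 kb, 2.23% among stronger peaks, 3.23% with protein-coding starts and 3.10 to 3.22% from single replicates. The CTCF share, 5.52%, became 6.95% among stronger peaks, 6.07% with protein-coding starts and 3.97 to 4.16% from single replicates. The AP-1 excess over near intronic regions, 1.15 points, was 0.608 at 10 kb and 0.870 with 150 bp searched, with intervals that include 0. It turned to -0.614 at 50 kb and ranged from -0.0734 to 0.472 from single replicates. The FOXA excess stayed above 0 in all 12 alternatives run. These include a comparison with windows 1 kb away (4.48 points), which is not an excess over near intronic regions. They also include a hotspot required in both replicates, which kept all 8601 members and changed no value. Brain neuron genes had the lowest density under all 10 alternatives, among them the same hotspot setting. The highest was that of Hippo and Tead genes except without replicate 1, where epithelial adhesion genes led (79.1 against 73.3 per Mb). The causes of these shifts were not tested. Sharing cannot be computed from 1 replicate. No paired analysis was possible because there is 1 group.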
